A study of Mus musculus with 14 samples.

Results

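The Ly49 receptors are a family of C-type lectin-like proteins that mouse natural killer (NK) cells and some T cells carry on their surface, encoded by the Klra genes in the NK gene complex. The family was taken here as 8 genes, Klra1, Klra3, Klra4, Klra5, Klra6, Klra7, Klra8 and Klra9, chosen by symbol from the 50508 gene rows of each count table, and all 8 had a row. A further 6 rows carried a Klra symbol and are described apart from the 8. Most Ly49 receptors bind classical MHC class I molecules, and some bind viral mimics of these. Inhibitory Ly49 receptors hold a tyrosine motif (ITIM) near the start of their cytoplasmic tail that recruits the phosphatase SHP-1, and so raise the threshold for killing a cell that carries self MHC class I. Activating Ly49 receptors lack that motif and signal through the adaptor DAP12, the product of Tyrobp. Of the 8, Klra1 (Ly49A), Klra3 (Ly49C), Klra5 (Ly49E), Klra6 (Ly49F), Klra7 (Ly49G) and Klra9 (Ly49I) are known as inhibitory receptors, and Klra4 (Ly49D) and Klra8 (Ly49H, which recognises a cytomegalovirus protein) as activating ones.

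The study set innate-like T cells with killer function (αβILTCk), a population of αβ T cells in mouse tumours, beside conventional T cells and beside their thymic progenitors. Bulk RNA sequencing gave 10 libraries in 5 groups of 2. ILTCkP are thymic ILTCk progenitors of C57BL/6 mice, sorted at least as low or negative for CD4 and CD8α and negative for the lipid-loaded CD1d reagent used to find natural killer T cells, in a gate whose description breaks off in the labels. CD8SP are CD8 single-positive thymocytes of C57BL/6 mice, whose gate is not given in the sources used here. NK1.1+ ILTCk were sorted from tumours as TCRβ+ CD8α+ PD-1- NK1.1+ cells, and PD1+ Tconv (conventional T cells) as TCRβ+ CD8α+ PD-1+ NK1.1- cells. The gate of the third tumour group, NK1.1- ILTCk, is not given in the sources used here. Both tumour ILTCk groups carry a cell type tag ending in ILTCkP, the name of the thymic progenitors, and were placed by their source name. All 3 tumour groups came from mice labelled retrogenic, meaning that an introduced T cell receptor was carried by their blood stem cells. Neither the receptor used nor the tumour or the age of the animals is stated. Replicates are described as biological, but whether they came from separate animals is not stated, so p-values measure the spread between these libraries. In bulk libraries, fewer Ly49-positive cells and less Ly49 RNA per cell cannot be told apart.

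All 8 genes lie on the minus strand of mouse chromosome 6 in GRCm38, from Klra5 at chr6:129898996-129917650 to Klra1 at chr6:130363917-130386874. They are close relatives: over the 28 pairs, coding identity ranged from 77.9% to 95.9% with a median of 83.6%, and the closest pair was Klra3 and Klra9. The first 60 coding bases are shown because they hold the codon that separates the receptor classes. Lines run 5′ to 3′ from the ATG, on the coding strand of the GENCODE M21 transcripts, with capitals at bases that differ from Klra1, inhibitory genes first and the activating Klra4 and Klra8 last.
Klra1: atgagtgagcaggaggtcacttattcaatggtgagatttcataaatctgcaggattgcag
Klra3: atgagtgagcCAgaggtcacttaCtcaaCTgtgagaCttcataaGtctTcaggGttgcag
Klra5: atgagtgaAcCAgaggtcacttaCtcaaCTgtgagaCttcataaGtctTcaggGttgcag
Klra6: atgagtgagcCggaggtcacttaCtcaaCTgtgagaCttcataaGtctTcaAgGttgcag
Klra7: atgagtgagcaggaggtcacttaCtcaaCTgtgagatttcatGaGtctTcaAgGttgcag
Klra9: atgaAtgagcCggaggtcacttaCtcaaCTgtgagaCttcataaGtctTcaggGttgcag
Klra4: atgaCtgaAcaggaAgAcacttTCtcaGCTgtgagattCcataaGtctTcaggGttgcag
Klra8: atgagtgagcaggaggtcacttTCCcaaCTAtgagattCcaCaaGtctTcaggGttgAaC
At codon 8, bases 22 to 24 counted from 1 at the A of the ATG, Klra1 has TAT and Klra3, Klra5, Klra6, Klra7 and Klra9 have TAC, both of which encode tyrosine. Klra4 and Klra8 have TTC, which encodes phenylalanine, through A23T, and no other member differed from Klra1 at that base. This tyrosine is the one within the ITIM of the inhibitory receptors.

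Shared sequence bears on every value below, since a read that fits more than 1 Klra gene can be dropped or assigned to the wrong one, and neither the counting rule nor the read length is stated. Of the 50-base windows of its transcripts, Klra8 shared 33.1% with another gene, Klra9 31.5%, Klra3 20.7% and Klra7 12.3%. Klra4 shared 4.68%, Klra1 2.98%, Klra6 2.62% and Klra5 0.655%. At 100 bases the shares were 14.4% for Klra8, 4.07% for Klra9, 1.83% for Klra7 and 1.78% for Klra3, and 0 for the other 4 members. The main partner at 100 bases was Klra14-ps for Klra8, Klra11-ps for Klra9, Klra13-ps for Klra7 and Klra10 for Klra3. Values of Klra1, Klra5 and Klra6 are thus the least exposed to shared reads, and those of Klra8 and Klra9 the most.

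**Figure D1:**
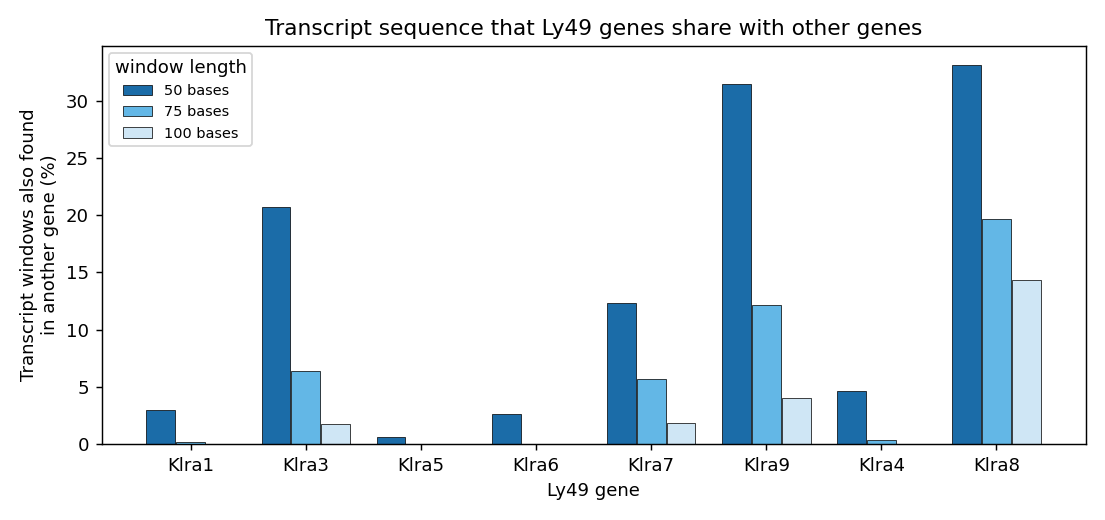
Share of each Ly49 gene's transcript windows that also occur in a transcript of another gene, in percent on a linear axis from 0, for windows of 50, 75 and 100 bases. Klra8 and Klra9 share 33.1% and 31.5% of their 50-base windows, and Klra5 shares 0.655%.

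The libraries held 16530085 to 32097301 counts. Levels are given as CPM, counts divided by library size and scaled by TMM. In the thymus, 9 T cell markers summed to 8961 and 8583 CPM in ILTCkP, against 11859 and 10766 in CD8SP. In the tumour table they summed to 3753 and 790 in NK1.1+ ILTCk, with NK1.1- ILTCk at 1989 and 1442 and PD1+ Tconv at 6026 and 4200. PD1+ Tconv replicate 2 stood apart: 8 epithelial and gland markers summed to 262764 CPM there, against 3207 in replicate 1. In the other 4 tumour libraries these ran from 5678 to 44393. The 12 macrophage and myeloid markers summed to 6631 and 18457 CPM in NK1.1+ ILTCk, with NK1.1- ILTCk at 3044 and 2992 and PD1+ Tconv at 147 and 1031, and to 18.8 to 29.0 in the 4 thymic libraries. Dendritic cell markers reached 2096 to 12510 CPM in the 4 ILTCk tumour libraries, against 446 and 1136 in PD1+ Tconv, and 150 to 257 in the thymus. B cell markers lay between 93.8 and 890 CPM in all 10 libraries.

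In the thymus, the inhibitory Ly49 genes were read in ILTCkP and were at or near 0 in CD8SP. Klra1, which encodes the prototype inhibitory Ly49, had 381 and 1290 counts in ILTCkP, against 0 and 12 in CD8SP. That is 15.0 and 39.5 CPM in ILTCkP, against 0 and 0.380 CPM in CD8SP. Both progenitor libraries were far above both CD8SP libraries, and the second progenitor library held 2.63 times as much as the first. Klra1 rose 144-fold by group means, with a fitted log2 fold change of 7.10 ± 1.18 (SE; edgeR quasi-likelihood test, adjusted p = 0.0328).

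Without CD8SP replicate 2, which leaves the gene at 0 counts in CD8SP, the fitted value was 12.6 and is no bound, and without the other libraries it was 6.16 to 7.63.

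Klra7 was second, with 5.99 and 10.3 CPM in ILTCkP, against 0 and 0.316 in CD8SP. Its log2 fold change was 5.62 ± 1.17 and missed the threshold in edgeR (adjusted p = 0.0599). Klra6 had 2.09 and 5.98 CPM in ILTCkP, against 0.0345 and 0.221 in CD8SP, with a log2 fold change of 4.91 ± 1.06 (edgeR, adjusted p = 0.0647). For both genes the 4 libraries split by group without overlap. Leaving out 1 library put Klra7 at 4.68 to 10.9 and Klra6 at 3.96 to 6.70, the highest of each without CD8SP replicate 2, where Klra7 too is at 0 counts in CD8SP. Klra3 had 26 and 116 counts in ILTCkP, against 1 and 0 in CD8SP, with a log2 fold change of 6.79 ± 1.36 (edgeR, adjusted p = 0.0536). With only 1 count in CD8SP its ratio of scaled counts, 148, has a 95% counting interval of 26.2 to 5902, and leaving out 1 library put the fitted value at 5.61 to 9.10, the highest without CD8SP replicate 1. Klra9 had 13 and 28 counts in ILTCkP and 0 in both CD8SP libraries. Against a floor of 3 counts over the CD8SP group it was at least 13.8-fold higher in ILTCkP (edgeR, adjusted p = 0.0809).

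The remaining 3 members were too low to enter the test. Klra5 had 1 and 9 counts in ILTCkP, against 1 and 0 in CD8SP, a ratio of 10.5 with a 95% counting interval of 1.49 to 454. Klra4 had 0 counts in both ILTCkP libraries, against 0 and 7 in CD8SP. Klra8 had 0 counts in all 4 thymic libraries, which allows up to 0.118 and 0.0919 CPM in ILTCkP and 0.103 and 0.0949 CPM in CD8SP at 3 counts a library. Intervals and floors cover counting error only. Neither activating gene was therefore read in the progenitors: they held 0 of 626 and 0 of 1975 counts of the family, with exact 95% Clopper-Pearson upper bounds of 0.588% and 0.187%.

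The test thus called 1 of the 5 members that passed the filter on low counts, Klra1, against a background of 3.38% of 14634 genes called higher and 1.33% called lower. All 5 were higher in both ILTCkP libraries than in either CD8SP library, as were 28.8% of all genes tested. These 5 passed the filter through their ILTCkP counts, so their shared direction is no separate evidence. DESeq2 called all 5 higher, where its background was 8.82% of genes. In data simulated for this comparison 54 of its 167 calls were false. There 66 or 67 genes were changed at each of 2-, 4- and 8-fold, while DESeq2 called 1997 genes here. That false share is therefore no estimate for these calls. Leaving out 1 library gave the ranges of Klra1, Klra3, Klra6 and Klra7 stated above. Every member tested stayed higher in ILTCkP, which only restates that the libraries did not overlap. In those fits a lone library is assumed to vary like the other group, so calls are not read from them.

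Summed markers of other lymphocytes were also higher in ILTCkP than in CD8SP. The 12 NK cell and ILC markers summed to 402 and 438 CPM in ILTCkP, against 92.7 and 98.9 in CD8SP. Most of the ILTCkP sum was Kit, at 206 and 292 CPM, and Gata3, at 161 and 112. In CD8SP Kit had 12.9 and 16.3 CPM and Gata3 62.2 and 65.7. Eomes went the other way, at 1.26 and 1.26 CPM in ILTCkP, against 9.27 and 6.33 in CD8SP. Ncr1, Cma1 and Khdc1a were at 0 in all 4 libraries. Of the 7 listed genes tested, 3 were called higher and 1 lower, where 3.38% and 1.33% of all genes were. The 8 gamma-delta T cell markers summed to 295 and 442 CPM in ILTCkP, against 21.3 and 18.1 in CD8SP. The 7 natural killer T markers summed to 516 and 495 CPM in ILTCkP, against 285 and 259 in CD8SP, with Trav11 and Trav11d at 0 in all 4. The part of gamma-delta T cells in the Ly49 values was not tested.

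**Figure D2:**
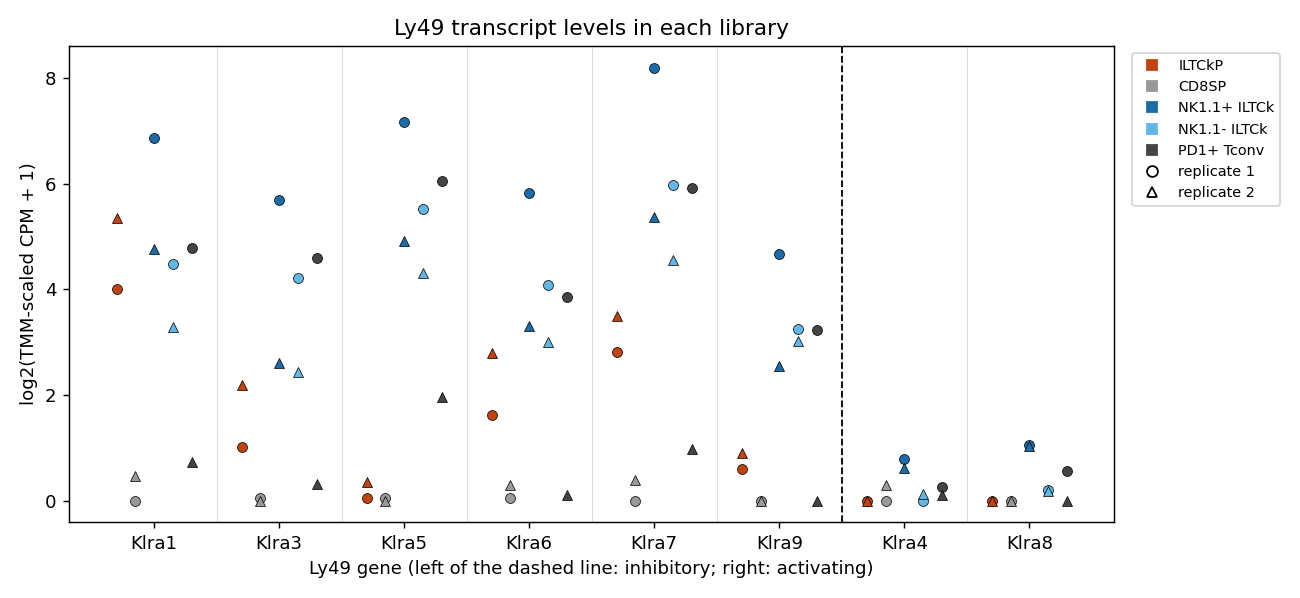
Level of each Ly49 gene in each of the 10 libraries, as log2(CPM + 1) after TMM scaling, with circles for replicate 1 and triangles for replicate 2; the thymic and tumour tables were scaled separately. ILTCkP libraries lie above CD8SP for the 6 inhibitory genes, Klra5 only barely, while in the tumour table the spread between replicates of PD1+ Tconv spans most of the range for 6 genes.

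In the tumour table, the same inhibitory genes were read in all 3 groups, now with Klra5 among them, and the replicates of each group lay far apart. The summed level of the 8 genes was 685 and 116 CPM in NK1.1+ ILTCk, with NK1.1- ILTCk at 170 and 68.7 and PD1+ Tconv at 197 and 4.94. Replicate 1 was the higher in each group, with a ratio to replicate 2 of 5.90 for NK1.1+ ILTCk, 2.47 for NK1.1- ILTCk and 39.8 for PD1+ Tconv. By group means the order was NK1.1+ ILTCk, NK1.1- ILTCk, PD1+ Tconv, and all neighbours in it overlapped. In the separately scaled thymic table the sums were 24.7 and 60.5 CPM in ILTCkP and 0.103 and 1.14 CPM in CD8SP.

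Klra7 was the most abundant member in NK1.1+ ILTCk, with 293 and 40.2 CPM, where NK1.1- ILTCk had 61.7 and 22.6 and PD1+ Tconv had 59.5 and 0.973. Klra5, which encodes the Ly49 known for its expression on fetal NK cells and on intestinal and epidermal T cells, had 143 and 29.1 CPM in NK1.1+ ILTCk, with NK1.1- ILTCk at 44.8 and 18.7 and PD1+ Tconv at 65.4 and 2.92. For both genes the highest library was NK1.1+ ILTCk replicate 1 and the lowest PD1+ Tconv replicate 2. Klra1 had 116 and 26.3 CPM in NK1.1+ ILTCk, with NK1.1- ILTCk at 21.3 and 8.71 and PD1+ Tconv at 26.5 and 0.649. Both NK1.1+ libraries of Klra1 lay above both NK1.1- libraries, while PD1+ Tconv replicate 1 was level with the lower NK1.1+ library.

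Klra6 had 55.5 and 8.85 CPM in NK1.1+ ILTCk, with NK1.1- ILTCk at 15.9 and 6.98 and PD1+ Tconv at 13.4 and 0.0811. Klra3 had 51.0 and 5.10 CPM in NK1.1+ ILTCk, with NK1.1- ILTCk at 17.5 and 4.42 and PD1+ Tconv at 23.03 and 0.243. Klra9 had 24.4 and 4.87 CPM in NK1.1+ ILTCk, with NK1.1- ILTCk at 8.505 and 7.07 and PD1+ Tconv at 8.44 and 0. None of these 3 genes separated NK1.1+ ILTCk from either other group. Across the 6 tumour libraries the 6 inhibitory genes moved together, with Pearson r on log2(CPM + 1) between 0.931 and 0.998 over their 15 pairs, a description over libraries that share groups and depth.

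The activating genes were low throughout. Klra8 had 24 and 23 counts in NK1.1+ ILTCk, with NK1.1- ILTCk at 5 and 3 and PD1+ Tconv at 15 and 0. On the CPM scale these are 1.07 and 1.04 in NK1.1+ ILTCk, with NK1.1- ILTCk at 0.148 and 0.137 and PD1+ Tconv at 0.478 and 0. Klra4 had 16 and 12 counts in NK1.1+ ILTCk, with NK1.1- ILTCk at 0 and 2 and PD1+ Tconv at 6 and 1. For both, NK1.1+ ILTCk lay above each of the other groups without overlap, as did 7.93% of the 18091 genes tested. Both passed the filter on low counts through their NK1.1+ ILTCk counts, so their height there is no separate evidence. The 2 NK1.1+ libraries differed by 1.03-fold in Klra8 and 1.32-fold in Klra4 on the CPM scale, on only 12 to 24 counts each. In PD1+ Tconv Klra8 was higher in replicate 1, as the inhibitory genes were. Klra8 shares the most sequence with its neighbours of all 8 genes. Together Klra4 and Klra8 made up 0.261% and 1.36% of the family's counts in NK1.1+ ILTCk, while NK1.1- ILTCk had shares of 0.0870% and 0.332% and PD1+ Tconv of 0.340% and 1.64%. The last share is 1 of 61 counts, with an exact 95% interval of 0.0415% to 8.80%.

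None of the 3 tumour comparisons gave a call among the 8 members, all of which were tested. The background was 0% as well: edgeR called 0 of 18091 genes in each, so the absence of calls says nothing particular about the family. At an unadjusted p under 0.05 edgeR had 2590 genes (14.3%) in NK1.1+ ILTCk against PD1+ Tconv, 2147 (11.9%) in NK1.1- ILTCk against PD1+ Tconv and 712 (3.94%) in NK1.1+ ILTCk against NK1.1- ILTCk, none of them a member. DESeq2 called 1268, 707 and 57 genes in the same order, which is 7.44%, 4.73% and 0.373% of those it tested, and again none of the members with an adjusted p. DESeq2 gave none to Klra4 in any of the 3 comparisons, nor to Klra8 in the comparisons that include NK1.1- ILTCk.

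Between NK1.1+ ILTCk and PD1+ Tconv, all 8 fitted log2 fold changes were positive, with a median of 2.03 beside a median of -0.04 for all genes tested. Klra7 had 2.45 ± 1.58 (edgeR, adjusted p = 0.541) and Klra1 had 2.38 ± 1.40 (edgeR, adjusted p = 0.498). The smallest was Klra3 at 1.26 ± 1.65. Leaving out 1 library put Klra7 at 0.40 to 7.43 and Klra1 at 0.94 to 6.78, the lowest of each without NK1.1+ ILTCk replicate 1 and the highest without PD1+ Tconv replicate 1. Klra4 and Klra8 did not overlap between the groups, with 2.08 ± 1.47 and 1.98 ± 1.40, where 20.7% of all genes did not overlap in that direction. As stated above, these genes entered the test through their NK1.1+ ILTCk counts. Without NK1.1+ ILTCk replicate 1, Klra3 was at -1.20 and Klra5 at -0.24.

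Between NK1.1+ ILTCk and NK1.1- ILTCk, again all 8 estimates were positive, with a median of 1.74 beside 0.01 for all genes. The largest were Klra4 at 3.79 ± 1.63 and Klra8 at 2.84 ± 1.47 (edgeR, adjusted p = 1.00 for each), followed by Klra1 at 2.24 ± 1.39. Those 3 did not overlap between the groups, nor did 18.6% of all genes in that direction. Of them, Klra4 and Klra8 entered the test through their NK1.1+ ILTCk counts. The Klra4 ratio rests on 28 counts against 2, and is 17.5 with a 95% counting interval of 4.42 to 152. Leaving out NK1.1+ ILTCk replicate 1 put Klra3, Klra5, Klra6, Klra7 and Klra9 at -1.11, -0.13, -0.37, -0.07 and -0.68. The 3 non-overlapping genes kept their sign, which only restates that their libraries did not overlap.

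Between NK1.1- ILTCk and PD1+ Tconv, 4 of 8 estimates were positive (Klra1, Klra6, Klra7 and Klra9) and 4 were negative (Klra3, Klra4, Klra5 and Klra8). The median was 0.02, beside -0.04 for all genes. The values ran from 0.86 ± 1.57 for Klra9 to -1.71 ± 1.64 for Klra4, and the groups overlapped for all 8 genes. PD1+ Tconv replicate 1 lay above both NK1.1- libraries for Klra1, Klra3, Klra4, Klra5 and Klra8, and replicate 2 below both for 7 members. The estimates turned on those PD1+ libraries: Klra3 was at 5.49 without PD1+ Tconv replicate 1, against -0.10 with both. The 3 tumour comparisons share libraries, so their values are not independent.

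**Figure D3:**
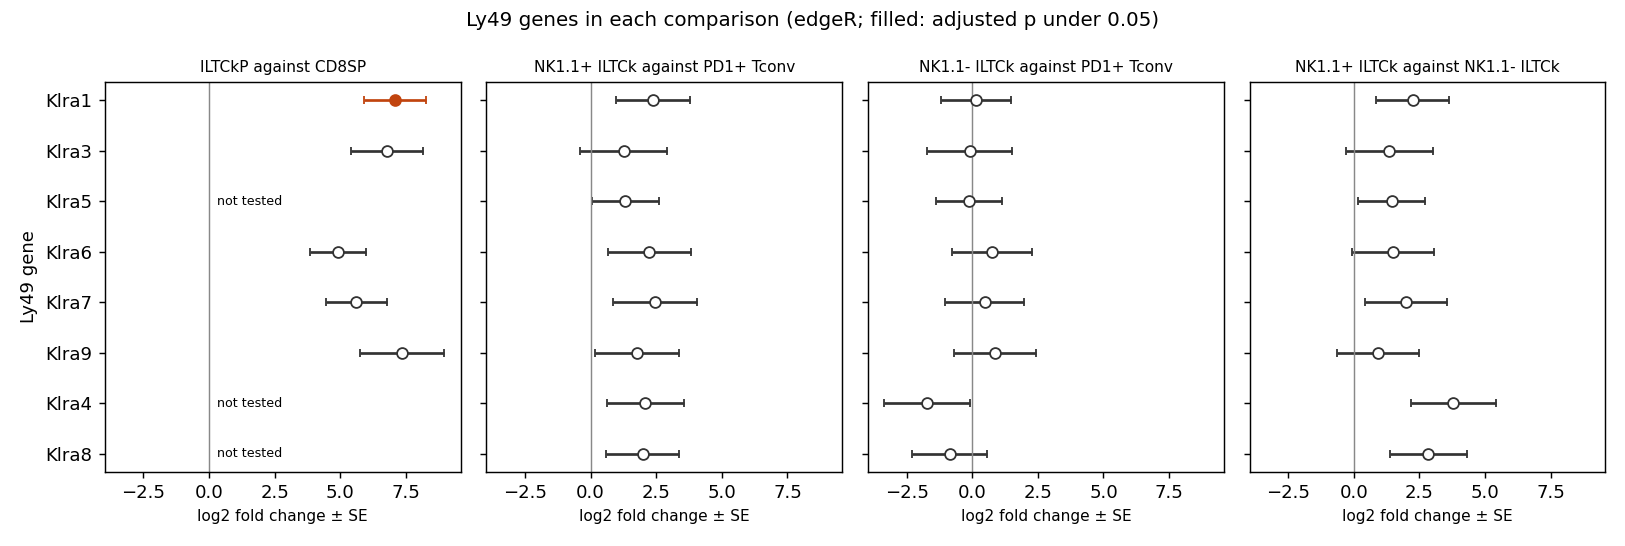
Fitted log2 fold change with its standard error for each Ly49 gene in the 4 comparisons, named group over the second; the filled point passed an adjusted p under 0.05. Klra1 at 7.10 in ILTCkP against CD8SP is the filled point, and Klra9 there rests on 0 counts in CD8SP, so that its fitted value is no bound.

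In each tumour group the replicate with more T cell transcripts was also the one with more Ly49 transcripts. In both thymic groups it was the one with fewer. The sum of the 8 members was therefore also set against the 9 T cell markers, a scale chosen after the data were seen. Per 1000 CPM of T cell markers, the family stood at 182 and 147 in NK1.1+ ILTCk, with NK1.1- ILTCk at 85.4 and 47.7 and PD1+ Tconv at 32.7 and 1.18. On this scale the 3 groups did not overlap in the family's sum, and the NK1.1+ replicates differed by 1.24-fold where they had differed by 5.90-fold in CPM. The PD1+ Tconv replicates still differed by 27.8-fold. The thymic values were 2.75 and 7.05 in ILTCkP and 0.00872 and 0.106 in CD8SP.

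Klra7 per 1000 CPM of T cell markers was 78.0 and 50.9 in NK1.1+ ILTCk, with NK1.1- ILTCk at 31.0 and 15.7 and PD1+ Tconv at 9.87 and 0.232. Klra1 was 30.9 and 33.3 in NK1.1+ ILTCk, with NK1.1- ILTCk at 10.7 and 6.04 and PD1+ Tconv at 4.40 and 0.154. Klra5 was 38.2 and 36.9 in NK1.1+ ILTCk, with NK1.1- ILTCk at 22.5 and 13.0 and PD1+ Tconv at 10.9 and 0.695. These 3 genes, with Klra6 and Klra9, fell into the order NK1.1+ ILTCk, NK1.1- ILTCk, PD1+ Tconv with no overlap, as did 1.98% of the 18091 genes tested. The other 3 overlapped. Klra3 had 13.6 and 6.46 in NK1.1+ ILTCk, with NK1.1- ILTCk at 8.81 and 3.07 and PD1+ Tconv at 3.82 and 0.0579. Klra4 and Klra8 overlapped between NK1.1- ILTCk and PD1+ Tconv. Their NK1.1+ replicates, close in CPM, stood at 0.191 and 0.686 for Klra4 and at 0.286 and 1.31 for Klra8. The markers were themselves highest in PD1+ Tconv, and on this scale 46.2% of genes had both NK1.1+ libraries above both PD1+ libraries, and 73.9% both NK1.1- libraries, while 4.13% had both NK1.1+ libraries above both NK1.1- libraries. With libraries scaled to these markers in edgeR, no member was called in the tumour comparisons. The nearest was Klra1 in NK1.1+ ILTCk against PD1+ Tconv, at 3.81 ± 1.25 (edgeR, adjusted p = 0.0516), on a scale that moved the median of all genes to 1.85. In NK1.1+ ILTCk against NK1.1- ILTCk, where that median was 0.33, the 8 members ran from 0.46 to 3.94.

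**Figure D4:**
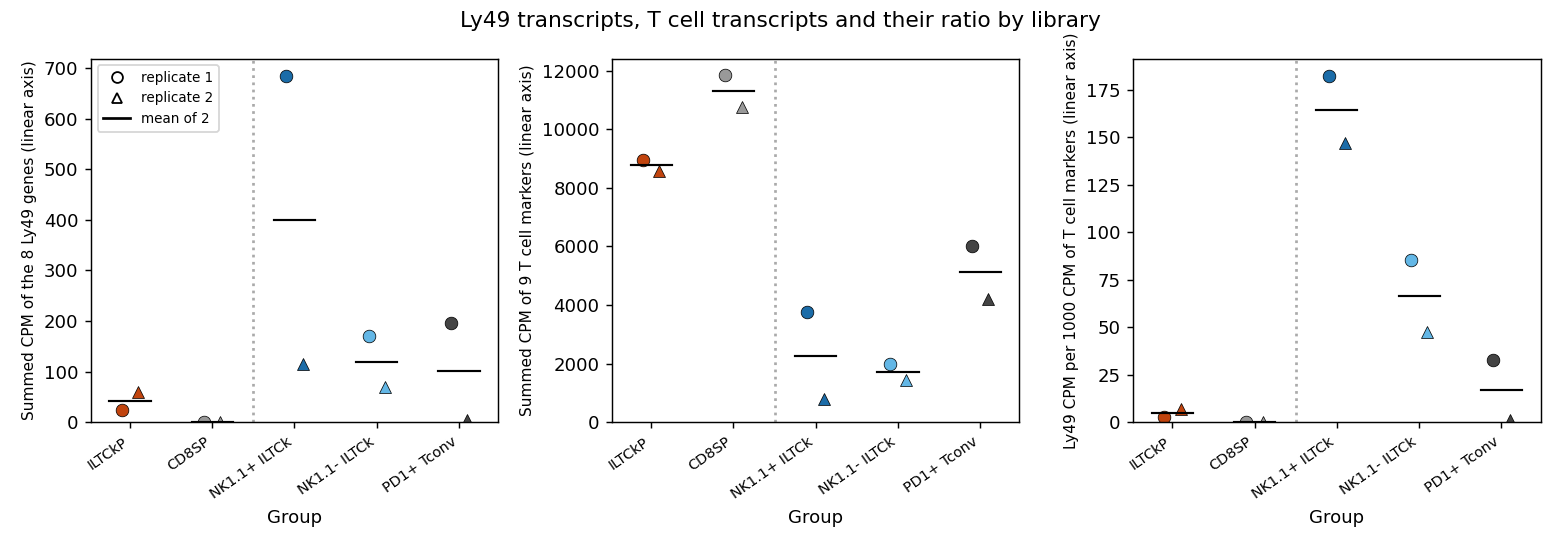
Left, summed CPM of the 8 Ly49 genes; middle, summed CPM of 9 T cell markers; right, Ly49 CPM per 1000 CPM of T cell markers, all on linear axes from 0, with 1 point a library and a bar at the mean of 2. On the right NK1.1+ ILTCk sits at 182 and 147, above NK1.1- ILTCk at 85.4 and 47.7 and PD1+ Tconv at 32.7 and 1.18.

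Markers of other cells were also read in the tumour groups. Ncr1, which marks NK cells and some innate lymphoid cells, had 38.0 and 7.18 CPM in NK1.1+ ILTCk, with NK1.1- ILTCk at 1.68 and 2.83 and PD1+ Tconv at 1.97 and 0. The 12 NK cell and ILC markers summed to 1457 and 1079 CPM in NK1.1+ ILTCk, with NK1.1- ILTCk at 519 and 611 and PD1+ Tconv at 446 and 327. Tyrobp supplied 1090 and 789 CPM of that in NK1.1+ ILTCk, with NK1.1- ILTCk at 258 and 181 and PD1+ Tconv at 97.2 and 77.6. Without it the other 11 markers summed to 367 and 290 in NK1.1+ ILTCk, with NK1.1- ILTCk at 261 and 430 and PD1+ Tconv at 349 and 249.6, and all 3 groups overlapped. Of the 11 list members tested in NK1.1+ ILTCk against NK1.1- ILTCk, 5 had a positive log2 fold change, with a median of -0.28 beside 0.01 for all genes. Eomes, a transcription factor of mature NK cells and of CD8 T cells, averaged 2.38 ± 1.38 CPM in NK1.1+ ILTCk, with NK1.1- ILTCk at 6.98 ± 0.13 and PD1+ Tconv at 106 ± 39.0 (SD, n = 2 each). The gamma-delta T cell markers summed to 793 and 149 CPM in NK1.1+ ILTCk, with NK1.1- ILTCk at 392 and 205 and PD1+ Tconv at 1287 and 655. The natural killer T markers summed to 728 and 163 CPM in NK1.1+ ILTCk, with NK1.1- ILTCk at 376 and 338 and PD1+ Tconv at 1310 and 452. The part of these cells in the Ly49 values was not tested.

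The make-up of the family differed between thymus and tumour. Compared per kilobase of exon, Klra1 supplied 52.0% and 56.5% of the 8 genes' level in ILTCkP, followed by Klra7 with 28.9% and 20.6% and Klra6 with 11.4% and 13.5%. Klra5 supplied 0.172% and 0.497% there. In the 6 tumour libraries Klra1 supplied 9.42% to 17.6%, Klra7 21.6% to 45.3% and Klra5 20.1% to 58.7%. Klra5 was thus at most 0.497% of the family in the progenitors and at least 20.1% in every tumour library, all 3 groups alike. Among the tumour libraries with over 1000 counts of the family, which leaves out PD1+ Tconv replicate 2 with its 61 counts, the Klra5 share was 20.1% to 31.9%. The thymic mice were C57BL/6 and the tumour mice retrogenic, so tissue, mouse model and table cannot be told apart in this contrast, and no test was made across the tables.

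**Figure D5:**
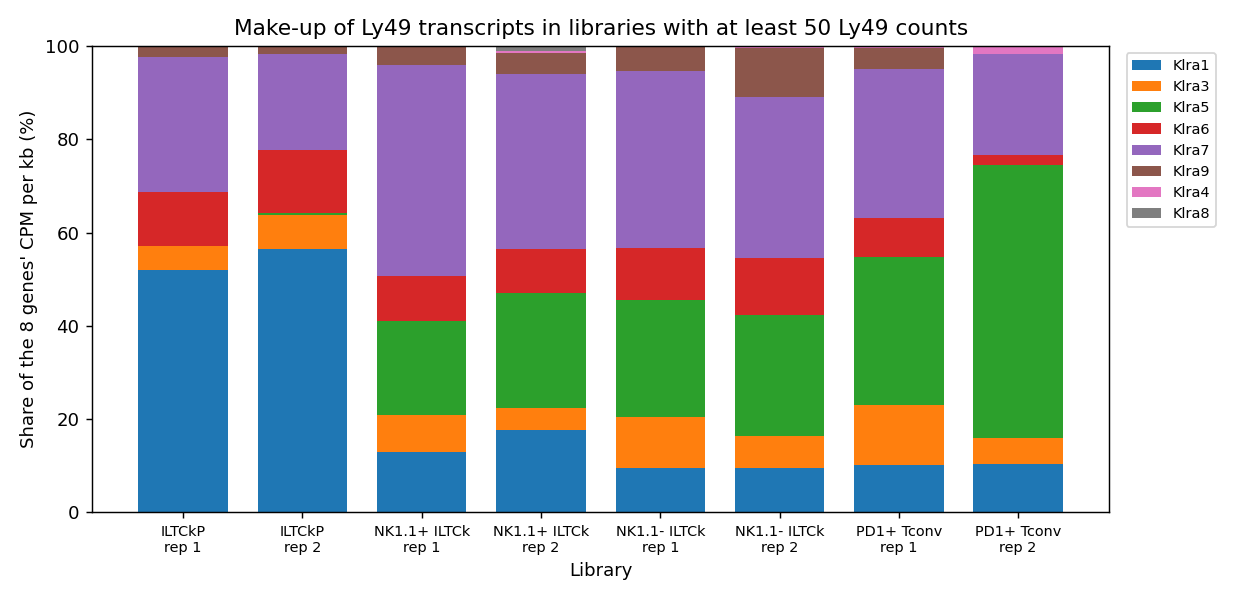
Share of each Ly49 gene in the summed CPM per kilobase of the 8 genes, in percent, for the 8 libraries with at least 50 Ly49 counts; both CD8SP libraries fall short of that. Klra1 leads in the 2 ILTCkP libraries with 52.0% and 56.5%, and Klra7 and Klra5 lead in the 6 tumour libraries.

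Promoter sequence is shown for the leading members, because Klra1 leads in the progenitors and Klra7 and Klra5 in the tumours. The windows are those of RefSeq on GRCm38.p6, minus strand, 250 bases before to 50 after the start: chr6:130386825-130387124 for Klra1, chr6:130233273-130233572 for the upstream start of Klra7 and chr6:129913175-129913474 for Klra5. Capitals mark matches to 1 of 3 motifs, searched on both strands: the RUNX letters TGTGGT with their variant TGCGGT, the TCF/LEF letters CTTTGAA with the variants CTTTGAT, then CTTTGTA, then CTTTGTT, and the T-box letters AGGTGTGA.
Klra1: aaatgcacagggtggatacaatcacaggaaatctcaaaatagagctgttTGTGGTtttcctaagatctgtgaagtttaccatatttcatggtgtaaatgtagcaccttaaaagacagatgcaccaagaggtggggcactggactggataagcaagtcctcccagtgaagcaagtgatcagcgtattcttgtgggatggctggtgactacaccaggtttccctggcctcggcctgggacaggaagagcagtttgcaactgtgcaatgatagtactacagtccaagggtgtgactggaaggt
Klra7: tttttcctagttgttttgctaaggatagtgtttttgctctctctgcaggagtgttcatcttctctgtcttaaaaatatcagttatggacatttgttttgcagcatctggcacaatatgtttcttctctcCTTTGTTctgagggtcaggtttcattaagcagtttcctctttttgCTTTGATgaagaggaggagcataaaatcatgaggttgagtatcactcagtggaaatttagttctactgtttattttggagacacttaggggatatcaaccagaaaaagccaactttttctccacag
Klra5: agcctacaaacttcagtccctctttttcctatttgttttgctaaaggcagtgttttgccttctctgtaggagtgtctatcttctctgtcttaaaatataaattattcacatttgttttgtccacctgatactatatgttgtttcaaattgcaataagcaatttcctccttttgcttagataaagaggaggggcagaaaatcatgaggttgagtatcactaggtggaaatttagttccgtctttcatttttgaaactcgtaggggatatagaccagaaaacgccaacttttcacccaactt
The Klra1 window held 1 RUNX match, at -201 from the start, and 22.4% of 32851 mouse promoter windows hold 1. The Klra7 window held TCF/LEF matches at -121 and -76, and the windows of Klra6 and Klra9 held 1 each, at -106 and -25, where 16.9% of all windows hold 1. The window of the other Klra7 start, chr6:130231638-130231937, is not shown and held 1 TCF/LEF match, at -247. The Klra5 window held none, and no member's window held the T-box letters, found in 1.28% of all windows. This Klra5 window lies inside the gene span given above, which reaches 129917650, and not at its outer end. The Klra7 and Klra5 windows were 82.3% identical over their aligned bases, while Klra1 was 57.5% identical to Klra7 and 57.1% to Klra5. A match describes these letters only.

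The other Klra rows differed from the 8. Klra17 (Ly49Q) and Klra2 (Ly49B) encode family members known from myeloid and plasmacytoid dendritic cells. Klra17 had 20.6 and 1.44 CPM in NK1.1+ ILTCk, with NK1.1- ILTCk at 2.21 and 0.456 and PD1+ Tconv at 0.191 and 0.324, and 0 counts in the thymus. Klra2 had 470 and 39 counts in NK1.1+ ILTCk, with NK1.1- ILTCk at 189 and 85 and PD1+ Tconv at 7 and 30. Neither shared a 50-base window with another gene. The pseudogene Klra13-ps, which shares 12.3% of the 50-base windows of Klra7, had 4.96 and 1.90 CPM in NK1.1+ ILTCk, with NK1.1- ILTCk at 4.84 and 2.37 and PD1+ Tconv at 12.3 and 0. In PD1+ Tconv replicate 1 it had 385 counts beside 1868 for Klra7, and in NK1.1+ ILTCk replicate 1 it had 111 beside 6551. Klra10, Klra11-ps and Klra14-ps stayed under 1 CPM in all 10 libraries.

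Genes of Ly49 signalling were described from a list of 17, all tested in both tables. In ILTCkP against CD8SP 5 rose and 0 fell, where 3.38% of all genes were called higher and 1.33% lower. The list median was 0.40 beside 0.01 for all genes. Tyrobp, the DAP12 adaptor of activating Ly49 receptors, averaged 18.8 ± 1.82 CPM in ILTCkP and 2.01 ± 1.09 in CD8SP (SD, n = 2 each; log2 fold change 3.22 ± 0.51, edgeR adjusted p = 0.0292). Fcer1g, an adaptor with an activating motif, averaged 202 ± 26.2 CPM in ILTCkP and 1.45 ± 0.0989 in CD8SP. Lat2 and Plcg2, a scaffold and a phospholipase of receptor signalling, rose by 6.96 and 4.93 on the log2 scale. Sh2d1b1, which encodes the EAT-2 adaptor, was at 0 in both CD8SP libraries and at least 80.3-fold higher in ILTCkP. Hcst, Ptpn6 and Ptpn11, which encode DAP10 and the phosphatases SHP-1 and SHP-2, were not called, at -0.62, 0.61 and 0.33 on the log2 scale. Tyrobp was thus higher in the progenitors, in which neither activating receptor was read.

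In the tumours 0 of the 17 were called. Tyrobp averaged 940 ± 213 CPM in NK1.1+ ILTCk, with NK1.1- ILTCk at 220 ± 54.1 and PD1+ Tconv at 87.4 ± 13.9 (SD, n = 2 each). Fcer1g averaged 1337 ± 153 CPM in NK1.1+ ILTCk, with NK1.1- ILTCk at 272 ± 65.6 and PD1+ Tconv at 132 ± 72.6. Against PD1+ Tconv, NK1.1+ ILTCk had log2 fold changes of 3.43 ± 0.46 for Tyrobp and 3.34 ± 0.56 for Fcer1g (edgeR, adjusted p = 0.0779 and 0.0942). Both are also transcripts of myeloid cells, whose markers were highest in NK1.1+ ILTCk as given above. The part of myeloid cells in these 2 values was not tested. The list medians were 0.09 in NK1.1+ ILTCk against PD1+ Tconv, -0.998 in NK1.1- ILTCk against PD1+ Tconv and 1.08 in NK1.1+ ILTCk against NK1.1- ILTCk.

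The ligands were described from 8 MHC class I genes, of which 7 had a row. None of the 7 was called in any comparison. In ILTCkP against CD8SP the median was -0.51, with H2-K1 at 2592 ± 33.0 CPM in ILTCkP and 3680 ± 194 in CD8SP (SD, n = 2 each). B2m, the light chain of MHC class I, averaged 1138 ± 337 CPM in ILTCkP and 2828 ± 21.2 in CD8SP, a log2 fold change of -1.31 ± 0.27 (edgeR, adjusted p = 0.0555). In the tumours the medians were -0.21 in NK1.1+ ILTCk against PD1+ Tconv, -1.003 in NK1.1- ILTCk against PD1+ Tconv and 0.42 in NK1.1+ ILTCk against NK1.1- ILTCk.

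Neighbours in the NK gene complex were 17 lectin-like receptor genes, of which 16 had a row and 9 passed the filter in the thymus. There 3 rose and 0 fell, where 3.38% of all genes were called higher and 1.33% lower. Klrb1a rose at least 1460-fold, with 0 counts in CD8SP, Klrb1c by 4.53 ± 0.74 and Klrb1f by 2.63 ± 0.51 on the log2 scale. Klrb1c encodes NK1.1, the marker of the tumour gates, and had 9.22 and 15.0 CPM in ILTCkP, against 0.827 and 0.221 in CD8SP. In the tumours it had 309 and 68.6 CPM in NK1.1+ ILTCk, with NK1.1- ILTCk at 29.9 and 12.4 and PD1+ Tconv at 39.5 and 2.35, so that the sort marker itself, which was used to choose the cells, lay above both NK1.1-negative groups in each NK1.1+ library. All 16 were tested in the tumour table and 0 were called, with medians of -0.07, -0.35 and 0.78 in the order of comparisons above.

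Transcription factors and cytokine receptors known to act on Ly49 genes or on NK lineage cells were a list of 19. In ILTCkP against CD8SP 6 rose and 2 fell, where 3.38% of all genes were called higher and 1.33% lower. The list median was 0.63 beside 0.01 for all genes. Tbx21 (T-bet) averaged 40.0 ± 11.3 CPM in ILTCkP and 3.91 ± 0.47 in CD8SP, and Il2rb, the receptor chain shared by IL-2 and IL-15, 5057 ± 358 CPM in ILTCkP and 439 ± 6.13 in CD8SP (SD, n = 2 each). Zbtb16 (PLZF) was at 0 in CD8SP and at least 3453-fold higher in ILTCkP. Id2, Id3 and Ikzf2 rose by 1.43, 1.55 and 1.37 on the log2 scale. Eomes fell to 1.26 ± 0.00330 CPM in ILTCkP, against 7.80 ± 2.08 in CD8SP, and Bcl11b, a T cell identity factor, to 26.2 ± 2.21 CPM in ILTCkP, against 158 ± 16.7 in CD8SP. Tcf7, whose product TCF-1 is required for Ly49A expression on NK cells, was not called in the thymus, at -0.07 ± 0.19 on the log2 scale. Its level in the tumours was 16.6 ± 3.50 CPM in NK1.1+ ILTCk, with NK1.1- ILTCk at 35.4 ± 11.8 and PD1+ Tconv at 87.8 ± 52.7. None of the 19 was called there, and the list medians were -0.96, -1.33 and 0.14 in the order of comparisons above. The listed genes tested with 0 counts in CD8SP were Sh2d1b1, Klrb1a and Zbtb16, at most 1 in a list. Each lay above its list median even at its bound, so the medians could not move.

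Of 14751 genes outside the family, the 5 whose log2(CPM + 1) over the 10 libraries followed the family's sum most closely were Clnk, Klrb1c, Pygl, Hhex and Sh2d1b1, with Pearson r of 0.962, 0.956, 0.954, 0.944 and 0.942. Clnk encodes an adaptor of the SLP-76 family, and had 44.1 and 9.12 CPM in NK1.1+ ILTCk, with NK1.1- ILTCk at 13.6 and 6.43, PD1+ Tconv at 18.6 and 1.22, ILTCkP at 4.02 and 2.27 and both CD8SP libraries at 0. Hhex, which encodes a homeobox factor, had 27.3 and 23.1 CPM in NK1.1+ ILTCk, with NK1.1- ILTCk at 9.01 and 4.38, PD1+ Tconv at 13.2 and 1.46, ILTCkP at 5.72 and 13.2 and CD8SP at 0.138 and 0. These values describe libraries that share groups, depth and the NK1.1 gate.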

How the data were processed

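Per the labels' design text, bulk RNA was sequenced; the authors deposited raw counts, whole numbers of reads for each gene, in a thymic and a tumour table. The submitters' processing notes name mm10 and DESeq. What aligner, counting rule, strand setting and read length applied is not given in the sources used here. The 4 single-cell libraries were not analysed here. The 8 members and all lists were chosen with earlier results of these data known.

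Each table was fitted alone, the tumour comparisons on all 6 libraries, with filterByExpr, TMM scaling and edgeR 4.0.16 (glmQLFit with robust estimation, quasi-likelihood test, Benjamini-Hochberg over all genes, threshold 0.05) in R 4.3.3. The alternatives were DESeq2 1.42.0, RLE scaling, no filter, a filter of 50 counts in at least 2 libraries, a block for replicate number, the 4 compared libraries alone and each library left out. Scaling to the T cell markers was added after the data were seen. Levels are TMM-scaled CPM, per kilobase of GENCODE M21 exon where genes are compared. The procedure was tested on simulated data with known changes in 66 or 67 genes at each of 2-, 4- and 8-fold. Shares of false calls hold for that setting only. In the setting of ILTCkP against CD8SP, 9 of 102 edgeR calls and 54 of 167 DESeq2 calls were false. In that of NK1.1+ ILTCk against PD1+ Tconv these were 2 of 22 and 63 of 139. There edgeR recovered 0 of 67 genes changed 4-fold and 20 of 66 changed 8-fold.

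Besides the 8 members, the text names Klra rows that reach 1 CPM, members of 4 pathway lists (those called, otherwise up to 4 with the smallest adjusted p) and the 5 genes most alike in pattern, outside the family and with a mean of at least 1 CPM. Hcst, Ptpn6, Ptpn11 and the cell type markers named singly were picked after their values were seen. The pathway lists are Ly49 signalling partners, MHC class I ligands, NK gene complex neighbours and Ly49 regulators.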

Additional observations from a re-analysis of the deposited data

How the results depend on the processing

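With 2 libraries a group, precision is limited by their spread. In ILTCkP against CD8SP edgeR called 1 of 5 members tested and 689 of 14634 genes. DESeq2 called 5 of 5 members and 1997 of 14634 genes. With the replicate number as a block these were 5 of 5 and 2212 of 14634. No filter on low counts gave 5 of 7 members and 2535 of 23559 genes. Both DESeq2 and the block added Klra3, Klra6, Klra7 and Klra9 to Klra1 (block: adjusted p = 0.00274, 0.000515, 5.89e-05 and 0.0291 in edgeR). At least 50 counts in 2 libraries left 3 members to test and called all 3, with 814 of 11638 genes. Scaling to the T cell markers, chosen after seeing the data, called 3 members and 1030 of 14634 genes. Leaving out 1 library gave 3 to 5 members and 592 to 7017 genes. No member tested was called in the 3 tumour comparisons under any alternative that kept 2 libraries a group. Klra4 and Klra8 were not tested with at least 50 counts in 2 libraries, nor in the 4 libraries of NK1.1- ILTCk against PD1+ Tconv alone. Both lack some DESeq2 adjusted p-values. The number of all genes called, 0 in edgeR, was 1268 in DESeq2, 1249 with no filter, 755 with the block and 784 with T cell marker scaling for NK1.1+ ILTCk against PD1+ Tconv. For NK1.1- ILTCk against PD1+ Tconv it was 707, 799, 298 and 50 in the same order, and for NK1.1+ ILTCk against NK1.1- ILTCk 57 in DESeq2 and 167 with no filter. Leaving out 1 library gave 0 to 35 for NK1.1+ ILTCk against PD1+ Tconv, the 35 without NK1.1+ ILTCk replicate 1. The cause of these differences was not tested.

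Members that turned sign did so without a call. In NK1.1- ILTCk against PD1+ Tconv the replicate block put Klra3 at 1.19 and Klra5 at 0.88, and T cell marker scaling put Klra3 at 1.61, Klra5 at 1.62 and Klra8 at 0.87 on the log2 scale. Leaving out 1 library there gave ranges of -0.83 to 4.54 for Klra1, -1.41 to 5.49 for Klra3, -1.05 to 3.46 for Klra5, -0.24 to 7.06 for Klra6, -0.50 to 5.45 for Klra7, -1.72 to 4.74 for Klra8 and -0.13 to 10.5 for Klra9. In NK1.1+ ILTCk against PD1+ Tconv the ranges were -1.20 to 6.83 for Klra3 and -0.24 to 4.90 for Klra5. In NK1.1+ ILTCk against NK1.1- ILTCk they were -1.11 to 2.66 for Klra3, -0.13 to 2.20 for Klra5, -0.37 to 2.28 for Klra6, -0.070 to 2.88 for Klra7 and -0.68 to 1.64 for Klra9. The shared replicate numbers are not said to mark shared animals or days: same-numbered libraries deviated together with correlations of 0.192 in the thymus and 0.364 to 0.408 in the tumours, so the block is given only here.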
